A study of Mus musculus with 8 samples.

Results

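The genes described here are 33 mouse genes of the p53 and BCL2 family apoptosis pathways, from p53 itself and its transcriptional targets to death receptors, BCL2 family proteins, the apoptosome and the inhibitors of apoptosis proteins. They were chosen by gene symbol: every probe on the arrays whose accession belongs to a listed symbol in a RefSeq gene table was taken, which gave 41 of the 39429 probes and all 33 genes. Of these, 31 genes could be tested, out of 21113 tested features (a feature is a gene, or a transcript left without a symbol). RNA came from dissociated mouse hippocampal neurons grown for 10 days, then given a lentivirus carrying either Flag-tagged Nr4a1 or GFP and kept for 6 more days. The GFP-labelled cultures (4 arrays) are the controls, and they carried the same kind of virus as the Nr4a1-labelled cultures (4 arrays). The promoter that drives the transgenes, the strain and the age of the animals are not given in the sources used here. The labels name no change to the neurons' own Nr4a1 gene. Nothing in the labels says that replicates came from separate cultures or animals, so a p-value here covers the spread among these arrays alone, and that spread may be technical.

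p53 is a transcription factor that is stabilised by DNA damage and other stress and that switches on genes for growth arrest, repair and cell death. In the mitochondrial death pathway, BH3-only proteins relieve the block that anti-apoptotic BCL2 proteins place on the pore-forming effectors Bax and Bak1, and cytochrome c released through the pores assembles Apaf1 and Casp9 into the apoptosome. Death receptors such as Fas start a separate route through Casp8. Nr4a1 is an orphan nuclear receptor induced by neuronal activity that binds the DNA octamer AAAGGTCA, called NBRE, and that is also known for a role in apoptosis through an interaction with Bcl2. Neurons no longer divide, and in them p53 targets and BH3-only proteins are known for their part in death after injury or loss of trophic support.

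Promoter sequences are shown for the p53 feedback gene Mdm2 and for the classical targets Cdkn1a, Bax and Gadd45a. Of these, only Gadd45a differed between the groups at the threshold used. Bcl2l2 is also shown, the only anti-apoptotic gene that differed when each gene was read by its brightest probe. Each run is the 250 bases before the gene's start in the RefSeq promoter table of the GRCm38.p6 assembly, read 5′ to 3′ on the gene's strand. For Cdkn1a the table holds windows at more than 1 start, and the window with the half-site matches is shown. The other, chr17:29093519-29093818, held no half-site match. Capitals mark a match to the p53 half-site decamer, the inverted-repeat unit of which a full p53 site holds a pair, or, in Bcl2l2, to AGGTCA, the core shared by NBRE and other nuclear receptor sites. The windows are chr6:67037408-67037657 on the minus strand for Gadd45a, chr10:117710759-117711008 on the minus strand for Mdm2, chr17:29090729-29090978 on the plus strand for Cdkn1a, chr7:45466899-45467148 on the minus strand for Bax and chr14:54883175-54883424 on the plus strand for Bcl2l2.
Gadd45a: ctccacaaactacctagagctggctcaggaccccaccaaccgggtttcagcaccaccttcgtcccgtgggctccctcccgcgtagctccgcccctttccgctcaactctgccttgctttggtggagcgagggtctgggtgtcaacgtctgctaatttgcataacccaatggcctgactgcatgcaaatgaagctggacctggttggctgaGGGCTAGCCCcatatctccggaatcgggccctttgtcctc
Mdm2: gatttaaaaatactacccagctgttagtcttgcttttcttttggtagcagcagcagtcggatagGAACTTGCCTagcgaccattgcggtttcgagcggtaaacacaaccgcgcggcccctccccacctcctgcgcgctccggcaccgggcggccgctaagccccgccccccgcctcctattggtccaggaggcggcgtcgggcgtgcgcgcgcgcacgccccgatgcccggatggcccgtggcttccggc
Cdkn1a: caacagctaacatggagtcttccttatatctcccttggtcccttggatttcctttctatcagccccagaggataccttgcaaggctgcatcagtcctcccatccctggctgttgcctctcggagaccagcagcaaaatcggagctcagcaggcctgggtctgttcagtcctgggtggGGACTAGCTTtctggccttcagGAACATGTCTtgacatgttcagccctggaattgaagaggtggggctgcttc
Bax: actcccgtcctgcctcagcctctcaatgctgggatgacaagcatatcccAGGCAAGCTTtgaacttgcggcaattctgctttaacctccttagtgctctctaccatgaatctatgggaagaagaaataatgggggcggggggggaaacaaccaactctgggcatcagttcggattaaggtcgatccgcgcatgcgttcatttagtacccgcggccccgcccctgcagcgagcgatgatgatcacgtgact
Bcl2l2: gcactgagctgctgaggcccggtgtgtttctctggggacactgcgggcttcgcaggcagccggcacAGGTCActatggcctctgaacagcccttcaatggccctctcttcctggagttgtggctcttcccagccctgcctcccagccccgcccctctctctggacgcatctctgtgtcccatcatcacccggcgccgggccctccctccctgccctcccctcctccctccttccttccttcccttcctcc

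Windows from 250 bases before the start to 50 after it were searched for 28 of the 33 genes. Perp, Tnfrsf10b, Trp53inp1, Zmat3 and Pmaip1 were not searched. Both strands were searched. The p53 half-site decamer matched in 10 of the 28 genes (35.7%), against 9.55% of the 27025 genes searched. These were Trp53, Cdkn1a, Mdm2, Bax, Birc2, Ccng1, Gadd45a, Sesn1, Aen and Ei24. In Gadd45a the match began 40 bases before the start, in Mdm2 186 and in Bax 201, and Cdkn1a held 2 matches, at 73 and 51 bases. NBRE matched in 0 of the 28, against 1.7% of the genes searched. Its core AGGTCA, which lies inside NBRE, matched in 4 (14.3%, against 18.1%): Bcl2l1, Bcl2l2, Xiap and Aifm1. GGGCGG, the core of the GC box, matched in 21 (75%, against 38.2%). A match only says that these letters lie in the window.

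Each value is a log2 ratio, the signal of the culture (Cy5) over that of a pooled commercial mouse reference RNA (Cy3), so that 0 means the signal of the reference and a difference of 1 means a doubling. Differences are Nr4a1-labelled minus GFP-labelled, with a standard error (SE) from limma's model, which carries the pair of arrays as a block, and p-values were adjusted over all 21113 features by Benjamini and Hochberg's method. A gene is called higher or lower where this adjusted p is under 0.05. A ratio is compared between arrays for 1 gene and never between genes. In RNA of a whole culture, fewer cells of a type and less RNA per cell cannot be told apart.

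The median Cy5 signal of an array was 137 to 194, the median local background 29.5 to 30, and the share of spots well above background in Cy5 60.9% to 69.2%, with 0 spots saturated. The probe for Nr4a1 itself read -2.06, -2.12, -1.90 and -2.49 in GFP-labelled replicates 1 to 4 and -1.32, -2.49, -1.20 and -2.37 in Nr4a1-labelled replicates 1 to 4. Between arrays of the same replicate number, it was higher in the library labelled Nr4a1 in replicates 1, 3 and 4 (by 0.73, 0.70 and 0.12) and lower in replicate 2 (by -0.36), with a difference of 0.30 ± 0.15 (SE, 4 pairs) and a limma adjusted p of 0.196. Whether the probe reads the transgene was not tested, and directions below are those of the labels. Slide 1 carried all 4 GFP-labelled arrays, slide 2 the first 3 replicates with Nr4a1 and slide 3 the fourth, so no slide held both groups. Replicates 1 to 4 carry the pair tags 1, 3, 4 and 5 in the labels, and replicate 4 makes up the labels' batch 2.

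Of the 31 tested genes, 6 were higher in Nr4a1-labelled cultures (Gadd45a, Trp53inp1, Fas, Tnfrsf10b, Bcl2l2 and Phlda3) and 4 were lower (Perp, Apaf1, Bbc3 and Diablo). The changes were small. Perp, at 1.45-fold lower, was the only one with a log2 difference of at least 0.5 in size, and the smallest called change was Diablo's, 1.16-fold lower. The share called, 32.3%, stands beside 24.4% of all tested features (12.8% higher and 11.5% lower). All 31 tested genes were well above background in Cy5 on all 8 arrays. With that asked of every feature, 35.5% of the 31 were called, beside 26.7% of all features (14.2% higher and 12.5% lower). The members' median difference was -0.00059, with 15 genes above 0 and 16 below, beside a median of -0.0034 over all features. The members' median depended on the scaling: it was 0.07 with the Cy5 channel alone (all features 0.0045) and 0.09 with each array centred on its median (all features 0.06). Their median size of difference was 0.16, beside 0.11 over all features.

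The groups of 4 arrays did not overlap for 14 of the 31 genes (45.2%), 9 with the Nr4a1-labelled arrays above and 5 below, beside 24.4% of all features. Differences had the same sign in all 4 pairs for 10 genes above and 8 below (58.1%), beside 42.4% of all features. Within single pairs the members' median difference was -0.02, 0.01, 0.01 and 0.08 for replicates 1 to 4. When slide was added to the model as a random block, 0 of the 31 genes were called, beside 0.0568% of all features. When spots of non-uniform background were kept in the background correction, 0 of the 31 were called, beside 1.08%. Without replicates 2 and 4, where the Nr4a1 probe was higher by no more than 0.12, the calls that remained were Perp, Apaf1, Fas and Gadd45a, beside 14.3% of all features (7.5% higher and 6.81% lower). Leaving out replicate 1, 2, 3 or 4 left 7, 6, 9 and 7 of the 31 called, beside 16.2%, 16.8%, 21.8% and 18.4% of all features.

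**Figure D1:**
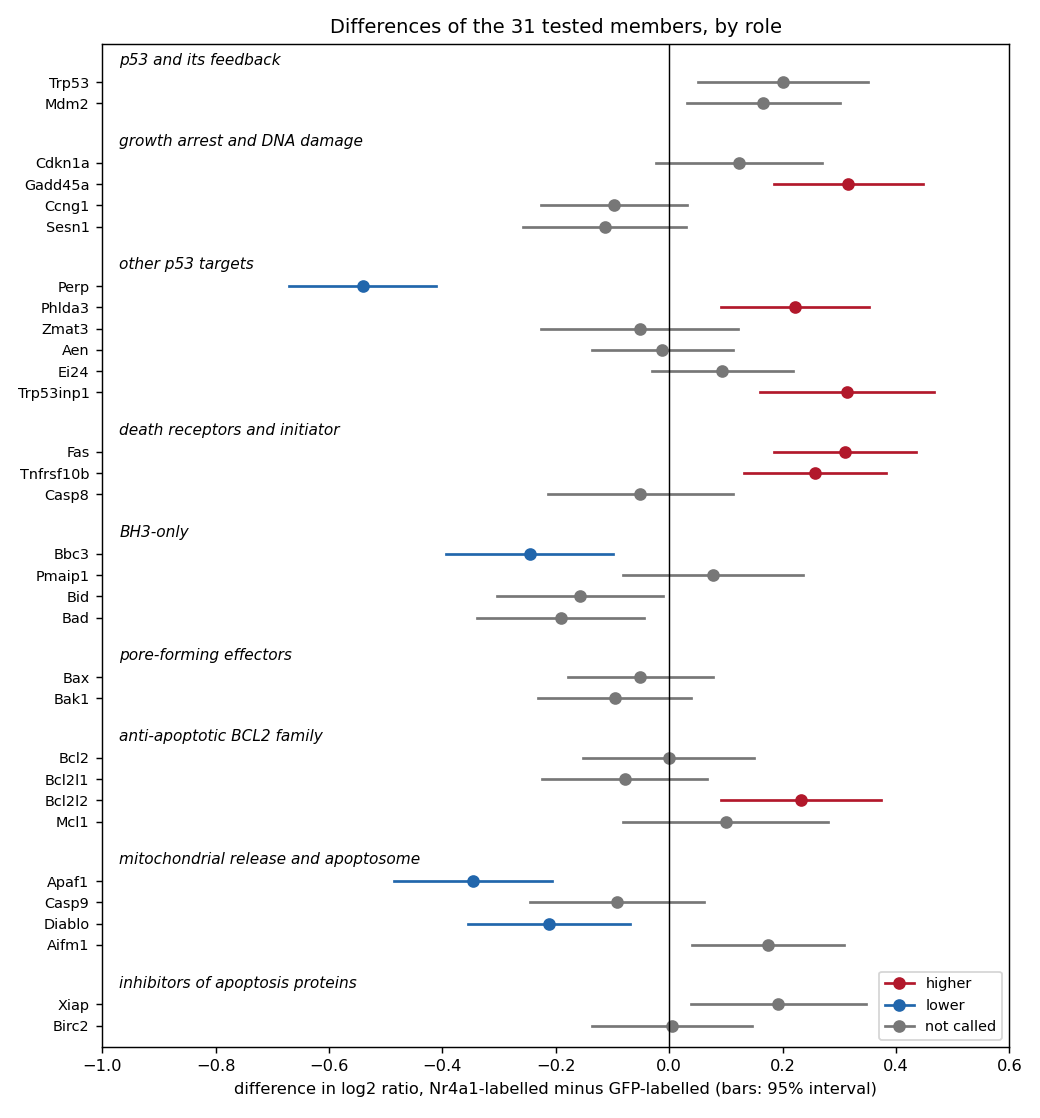
Log2 difference (x axis, Nr4a1-labelled minus GFP-labelled) for each of the 31 tested genes (y axis), grouped by role, with 95% intervals as bars and colour for the call. The 6 genes called higher lie between 0.22 and 0.32, and the 4 called lower between -0.54 and -0.21.

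Neither p53 nor its feedback inhibitor passed the threshold. Trp53, the gene of p53, read -1.53, -1.54, -1.56 and -1.55 in GFP-labelled replicates 1 to 4 and -1.38, -1.42, -1.42 and -1.15 in Nr4a1-labelled replicates 1 to 4. All 4 Nr4a1-labelled arrays lay above all 4 GFP-labelled ones, and replicate 4 stood apart from the other three of its group. The difference was 0.20 ± 0.07 (SE, 4 pairs, 95% interval 0.05 to 0.35), or 1.15-fold, with a limma adjusted p of 0.0545. Its probe was dim, with Cy5 signals of 138 to 202. Trp53 passed in 5 of 20 other settings, and its difference ran from 0.09 with the Cy5 channel alone to 0.41 with all spots in the background correction. Mdm2, the ubiquitin ligase that marks p53 for degradation and is itself a p53 target, read -0.90 to -0.78 in GFP-labelled arrays and -0.73 to -0.60 in Nr4a1-labelled arrays, also without overlap. Its difference was 0.17 ± 0.06 (SE, 4 pairs), with a limma adjusted p of 0.0724.

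Among the growth arrest and DNA damage targets, Gadd45a rose and the other three did not pass. Gadd45a, a stress-induced protein that binds PCNA and p21, read -2.43, -2.41, -2.33 and -2.27 in GFP-labelled replicates 1 to 4 and -2.03, -2.09, -2.10 and -1.97 in Nr4a1-labelled replicates 1 to 4. The groups did not overlap. It was 1.24-fold higher, by 0.32 ± 0.06 (SE, 4 pairs, limma adjusted p = 0.00381). Cdkn1a, which encodes the cyclin-dependent kinase inhibitor p21 and is the textbook readout of p53, read -1.61 to -1.29 in GFP-labelled arrays and -1.40 to -1.15 in Nr4a1-labelled arrays. These ranges overlap, and the difference was 0.12 ± 0.07 (SE, 4 pairs, 95% interval -0.02 to 0.27, limma adjusted p = 0.208). Its second, dimmer probe differed by -0.02. Ccng1, cyclin G1, read 0.15 to 0.25 in GFP-labelled arrays and 0.06 to 0.13 in Nr4a1-labelled arrays, so its groups did not overlap, although its difference of -0.10 ± 0.06 (SE, 4 pairs) had a limma adjusted p of 0.251. Sesn1, a sestrin that restrains mTORC1 under stress, differed by -0.11 ± 0.06 (SE, 4 pairs, limma adjusted p = 0.231).

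The 6 other p53 targets held both the strongest fall and a pair of rises. Perp, a membrane protein of cell junctions that is induced by p53 during apoptosis, read -2.80, -2.78, -2.69 and -2.65 in GFP-labelled replicates 1 to 4 and -3.31, -3.26, -3.31 and -3.19 in Nr4a1-labelled replicates 1 to 4. Every Nr4a1-labelled array lay below the lowest GFP-labelled one, and the 4 arrays of each group lay close together. Perp was 1.45-fold lower, by -0.54 ± 0.06 (SE, 4 pairs, limma adjusted p = 0.00014). In size this difference stood at percentile 96.0 of all features.

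Trp53inp1, a stress protein that acts with p53 and in autophagy, read -0.57, -0.61, -0.57 and -0.62 in GFP-labelled replicates 1 to 4 and -0.31, -0.08, -0.36 and -0.38 in Nr4a1-labelled replicates 1 to 4. The groups did not overlap, and Nr4a1-labelled replicate 2 was the highest. The gene was 1.24-fold higher, by 0.31 ± 0.07 (SE, 4 pairs, limma adjusted p = 0.00878), and without replicate 2 the difference was 0.24 with a limma adjusted p of 0.0549. A second probe of the gene, at Cy5 signals of 126 to 187, differed by 0.12. Phlda3, which competes with the kinase Akt for membrane lipids, read -0.21, -0.25, -0.19 and -0.16 in GFP-labelled replicates 1 to 4. In Nr4a1-labelled replicates 1 to 4 it read 0.0004, 0.07, 0.003 and 0.01, all above the GFP-labelled arrays. It was 1.17-fold higher, by 0.22 ± 0.06 (SE, 4 pairs, limma adjusted p = 0.0211), and lost the call without replicate 1 (0.23, limma adjusted p = 0.0577) and without replicate 2 (0.19, limma adjusted p = 0.126).

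Zmat3, an RNA-binding zinc finger protein, differed by -0.05 ± 0.08, Aen, an apoptosis-enhancing nuclease, by -0.01 ± 0.06, and Ei24, a membrane protein of the endoplasmic reticulum, by 0.09 ± 0.06 (SE, 4 pairs each). None of these 3 passed the test. Their ranges overlapped between the groups. A second bright probe of Aen differed by -0.08 and was lower in all 4 pairs. The groups overlapped for that probe, and its limma p adjusted over all tested probes was 0.342.

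Both death receptors were higher, while the caspase that they activate was not called. Fas, the receptor of Fas ligand, read -0.81, -0.86, -0.82 and -0.75 in GFP-labelled replicates 1 to 4 and -0.46, -0.59, -0.49 and -0.47 in Nr4a1-labelled replicates 1 to 4. The groups did not overlap. Fas was 1.24-fold higher, by 0.31 ± 0.06 (SE, 4 pairs, limma adjusted p = 0.00328). Tnfrsf10b, the mouse TRAIL receptor, read -1.35, -1.36, -1.34 and -1.35 in GFP-labelled replicates 1 to 4 and -1.07, -1.07, -1.08 and -1.15 in Nr4a1-labelled replicates 1 to 4. The GFP-labelled arrays were nearly level and all lay below the Nr4a1-labelled ones. Tnfrsf10b was 1.2-fold higher, by 0.26 ± 0.06 (SE, 4 pairs, limma adjusted p = 0.00878). Casp8, the initiator caspase of this route, read -3.46 to -3.24 in GFP-labelled arrays and -3.60 to -3.16 in Nr4a1-labelled arrays, with a difference of -0.05 ± 0.07 (SE, 4 pairs) and a limma adjusted p of 0.659. The Casp8 probe was dim, with Cy5 signals of 135.5 to 187, and its difference changed sign in 4 of 20 other settings. The probes of both ligands, Fasl and Tnfsf10, were well above background on 0 of the 8 arrays.

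**Figure D2:**
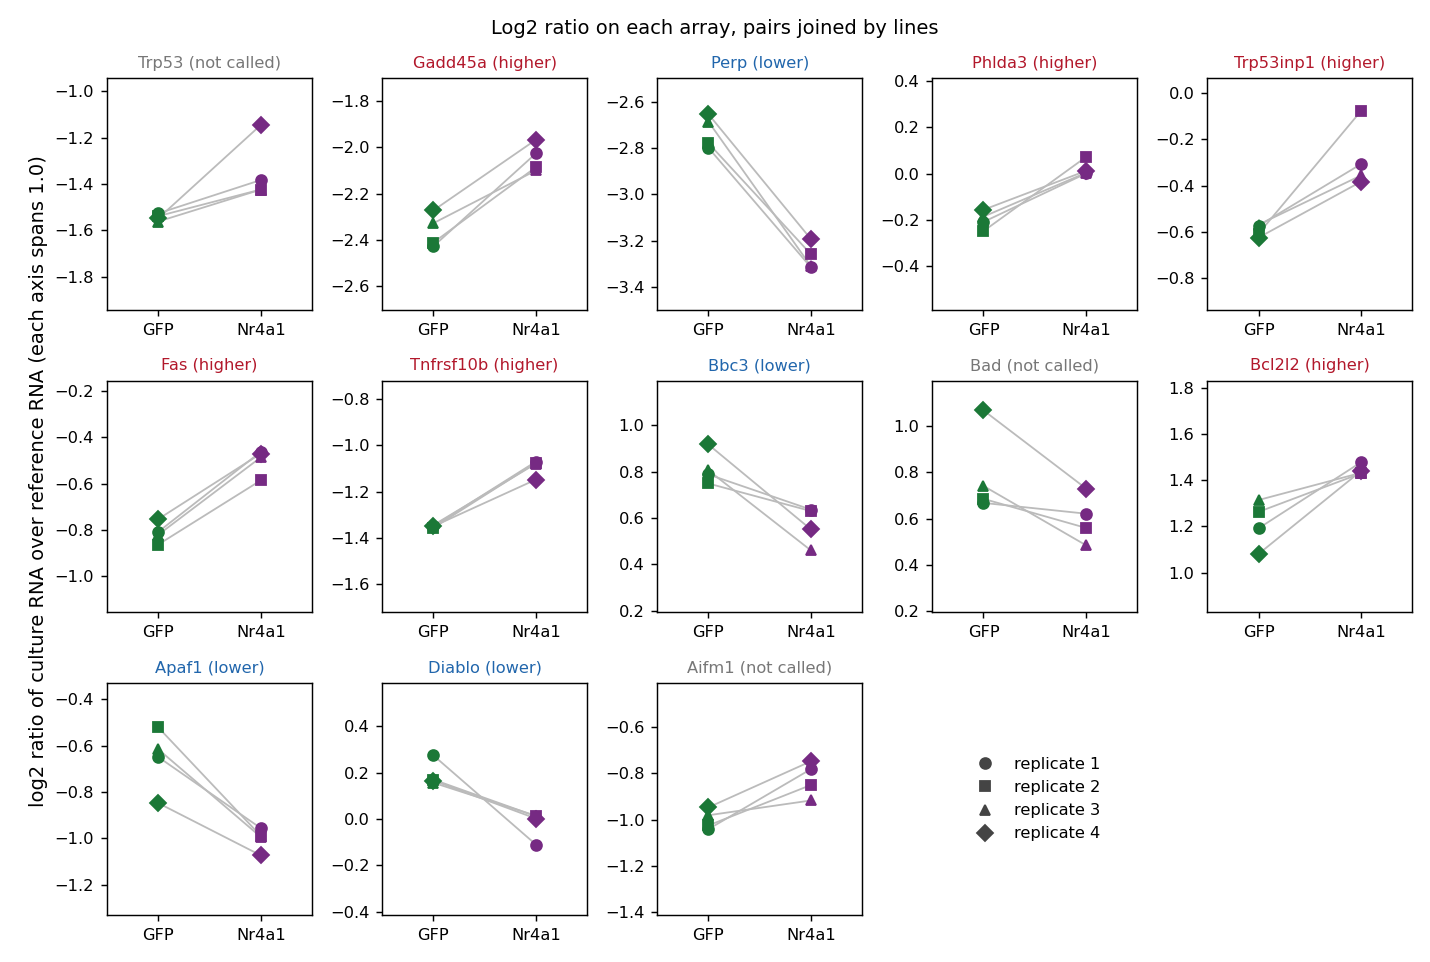
Log2 ratio of culture over reference RNA (y axis, each panel spanning 1.0) on each array of the GFP-labelled and Nr4a1-labelled groups (x axis) for the 10 called genes and for Trp53, Bad and Aifm1, with lines joining the arrays of a pair and a marker shape for each replicate. All 4 lines rise for the 6 genes called higher and fall for the 4 called lower, and the groups overlap for Bad, the lowest GFP-labelled array at 0.67 and the highest Nr4a1-labelled array at 0.73.

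Of the BH3-only genes, whose products start the mitochondrial pathway, Bbc3 fell and 3 others did not pass by their brightest probes. Bbc3 encodes PUMA, a p53 target that binds all anti-apoptotic BCL2 proteins. It read 0.79, 0.75, 0.81 and 0.92 in GFP-labelled replicates 1 to 4 and 0.64, 0.63, 0.46 and 0.55 in Nr4a1-labelled replicates 1 to 4, without overlap. It was 1.19-fold lower, by -0.25 ± 0.07 (SE, 4 pairs, limma adjusted p = 0.0224), and lost the call without replicate 3 (-0.21, limma adjusted p = 0.0753) and without replicate 4 (-0.21, limma adjusted p = 0.0895). Bad, a BH3-only protein held inactive by survival kinases, read 0.67, 0.69, 0.74 and 1.07 in GFP-labelled replicates 1 to 4 and 0.62, 0.56, 0.49 and 0.73 in Nr4a1-labelled replicates 1 to 4. In each pair the Nr4a1-labelled array was the lower one, although the groups overlapped because both arrays of replicate 4 were the highest of their group. The difference of -0.19 ± 0.07 (SE, 4 pairs) had a limma adjusted p of 0.0607. A second, dimmer probe of Bad differed by -0.25, without overlap, and its limma p adjusted over all tested probes was 0.0353. With the mean of its probes Bad was called, at -0.22 (limma adjusted p = 0.0276). Bid, which links Casp8 to the mitochondria, differed by -0.16 ± 0.07 (SE, 4 pairs, limma adjusted p = 0.112), and Pmaip1, the p53 target NOXA, by 0.08 ± 0.07 (SE, 4 pairs, limma adjusted p = 0.473). The probe of Bcl2l11, the BH3-only protein BIM, was well above background on 0 of the 8 arrays and was not tested.

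The pore-forming effectors showed no call. Bax read 0.02 to 0.18 in GFP-labelled arrays and -0.04 to 0.08 in Nr4a1-labelled arrays, a difference of -0.05 ± 0.06 (SE, 4 pairs, 95% interval -0.18 to 0.08). Bak1 read -1.24 to -1.07 and -1.31 to -1.14, a difference of -0.10 ± 0.06 (SE, 4 pairs, 95% interval -0.23 to 0.04). For both genes the groups overlapped.

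Among the anti-apoptotic genes, Bcl2l2 rose and Bcl2 had a difference near 0. Bcl2l2 encodes BCL-w, an anti-apoptotic protein abundant in neurons. It read 1.19, 1.26, 1.31 and 1.08 in GFP-labelled replicates 1 to 4 and 1.48, 1.43, 1.43 and 1.44 in Nr4a1-labelled replicates 1 to 4. The groups did not overlap, and the Nr4a1-labelled arrays were the tighter set. It was 1.17-fold higher, by 0.23 ± 0.06 (SE, 4 pairs, limma adjusted p = 0.0242), and lost the call without replicate 1 (0.21, limma adjusted p = 0.0875), without replicate 2 (0.25, limma adjusted p = 0.0554) and without replicate 4 (0.19, limma adjusted p = 0.0943). A second, dimmer probe of Bcl2l2 differed by more, 0.53 ± 0.08 (SE, 4 pairs).

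Bcl2, the founding member of the family, read -0.97 to -0.87 in GFP-labelled arrays and -1.06 to -0.75 in Nr4a1-labelled arrays, with a difference of -0.00059 ± 0.07 (SE, 4 pairs) and a 95% interval of -0.15 to 0.15. Bcl2l1, which encodes BCL-xL, was represented by probes that disagreed. Its bright probe, with Cy5 signals of 21343 to 31007, differed by -0.08 ± 0.07 (SE, 4 pairs), and its dim probe, with Cy5 signals of 96 to 198, by -0.36 ± 0.07 (SE, 4 pairs). For the dim probe the groups did not overlap, and its limma p adjusted over all tested probes was 0.00499. With the authors' deposited values Bcl2l1 was called lower by -0.36 (limma adjusted p = 0.00244), the dim probe's value. With the mean of all its probes it was also called, at -0.22 (limma adjusted p = 0.0237). Mcl1, a short-lived anti-apoptotic protein, differed by 0.10 ± 0.08 (SE, 4 pairs), and its Nr4a1-labelled arrays ran from -0.83 to -0.31. A second, dimmer probe of Mcl1 differed by 0.16, higher in 2 pairs and lower in 2.

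Of the genes that act after mitochondrial permeabilisation, Apaf1 and Diablo fell. Apaf1, the scaffold of the apoptosome, read -0.65, -0.52, -0.62 and -0.85 in GFP-labelled replicates 1 to 4 and -0.96, -0.99, -0.99 and -1.07 in Nr4a1-labelled replicates 1 to 4. The groups did not overlap. Apaf1 was 1.27-fold lower, by -0.35 ± 0.06 (SE, 4 pairs, limma adjusted p = 0.0032). Diablo, also called SMAC, is released from mitochondria and blocks inhibitors of apoptosis proteins. It read 0.28, 0.17, 0.16 and 0.17 in GFP-labelled replicates 1 to 4 and -0.11, 0.01, 0.01 and 0.002 in Nr4a1-labelled replicates 1 to 4. Replicate 1 held the highest GFP-labelled and the lowest Nr4a1-labelled value, and the groups did not overlap. The difference was -0.21 ± 0.06 (SE, 4 pairs, limma adjusted p = 0.0363). The call, though not the direction, was lost whichever replicate was left out, with differences of -0.16 without replicate 1, -0.23 without replicate 2, -0.24 without replicate 3 and -0.23 without replicate 4, at limma adjusted p-values of 0.0519 to 0.144. A second, dimmer probe of Diablo differed by -0.20 ± 0.08 (SE, 4 pairs). Its groups overlapped, it was lower in 3 pairs, and its limma p adjusted over all tested probes was 0.101.

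Aifm1, a mitochondrial flavoprotein that can act in caspase-independent death, read -1.04, -1.03, -0.98 and -0.95 in GFP-labelled replicates 1 to 4 and -0.78, -0.85, -0.92 and -0.75 in Nr4a1-labelled replicates 1 to 4. All Nr4a1-labelled arrays were above the GFP-labelled ones. The difference of 0.17 ± 0.06 (SE, 4 pairs) had a limma adjusted p of 0.0598. Casp9, the initiator caspase of the apoptosome, differed by -0.09 ± 0.07 (SE, 4 pairs, limma adjusted p = 0.373).

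The inhibitors of apoptosis proteins showed no call. Xiap, which binds and blocks caspases directly, read -0.14 to 0.07 in GFP-labelled arrays and 0.04 to 0.24 in Nr4a1-labelled arrays, a difference of 0.19 ± 0.07 (SE, 4 pairs, limma adjusted p = 0.069). Without replicate 3, whose Nr4a1-labelled array was below its partner, it was 0.27 with a limma adjusted p of 0.0201. Birc2, a ubiquitin ligase of tumour necrosis factor signalling, differed by 0.01 ± 0.06 (SE, 4 pairs, 95% interval -0.14 to 0.15). Birc3, its close relative, was not tested, since its probe stood well above background on 1 GFP-labelled and 2 Nr4a1-labelled arrays only.

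The calls differed in how they held across the 20 other settings, which changed the background correction, normalisation, probe choice, filter, block or replicates. Perp, Apaf1, Fas and Gadd45a were called in 18 settings, Tnfrsf10b in 17, Trp53inp1 in 16, Phlda3 in 14, Bbc3 and Bcl2l2 in 12 and Diablo in 8. No called gene changed sign in any of the 20, but in some of them the sign could not change. A quantile step on average intensity after loess repeated the main result for all 31 genes. The changed filters for dim probes, the fit without a block and the batch block left the difference of each called gene as it was. These settings count in the tallies above. With each array centred on its median in place of loess, the median of all features moved to 0.06 and 73.3% of all calls were higher, against 52.7% with loess. Of the 31 genes, 10 were then higher and 2 lower, beside 22.4% of all features (16.4% higher and 5.99% lower). With the labels' batch as the block in place of the pair, 10 were higher and 5 lower, beside 27.2% (14.2% higher and 13% lower). With Agilent's own ratio, 5 were higher and 2 lower, beside 13.5% (7.15% higher and 6.39% lower). Without a block, the same 10 genes were called as with it, beside 21.2%.

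**Figure D3:**
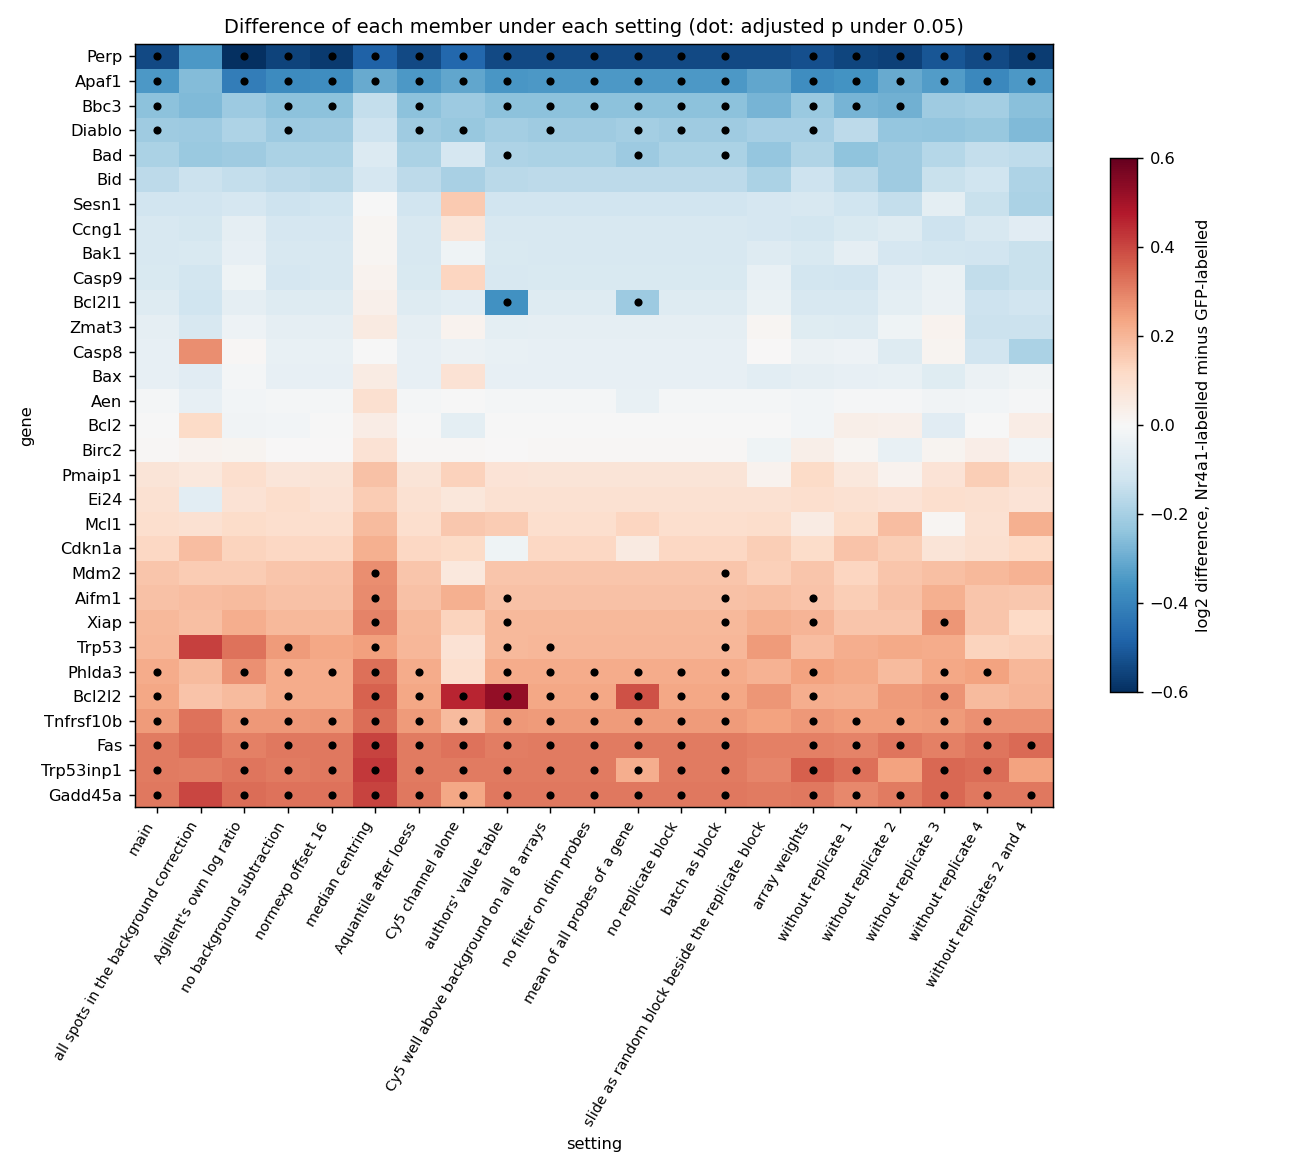
Log2 difference (colour, Nr4a1-labelled minus GFP-labelled) of each of the 31 tested genes (y axis) in the main setting and 20 others (x axis), with a dot where the adjusted p was under 0.05. The rows of Perp and Apaf1 at the top and Fas and Gadd45a at the bottom carry dots in 18 of the 20 other settings, and 0 dots lie in the columns for all spots kept and for the slide block.

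Further genes of the pathway, read from the same fit, included larger differences than any of the 33. Of 18 further BCL2 family genes and partners on the array, 14 were tested, 3 were higher and 3 lower (42.9% called, beside 24.4% of all features, 12.8% higher and 11.5% lower). Bok, a pore-forming relative of Bax and Bak1, read -2.15, -2.02, -2.06 and -1.93 in GFP-labelled replicates 1 to 4 and -0.33, -0.43, -0.38 and -0.22 in Nr4a1-labelled replicates 1 to 4. The groups lay far apart. Bok was 3.26-fold higher, by 1.70 ± 0.06 (SE, 4 pairs, limma adjusted p = 1.2e-07). It kept the call when all spots entered the background correction but not under the slide block, where its difference was 1.71 and its limma adjusted p 0.072. Bmf, a BH3-only protein, was 1.57-fold higher, by 0.65 ± 0.07 (SE, 4 pairs, limma adjusted p = 0.00013). Bnip3l was higher by 0.25, and Bnip3 and Bag1 were lower by -0.37 and -0.22. Bnip3 and Bnip3l are mitophagy receptors, and Bag1 is a co-chaperone that binds Bcl2.

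Of 28 tested caspases and genes of the receptor arm, 7 were higher and 5 lower (42.9% called, beside 24.4% of all features). Ngfr, the low-affinity neurotrophin receptor p75, which carries a death domain, read 0.87, 0.89, 1.02 and 0.85 in GFP-labelled replicates 1 to 4 and 2.94, 2.79, 2.76 and 3.03 in Nr4a1-labelled replicates 1 to 4. Every Nr4a1-labelled array was far above every GFP-labelled one. The gene was 3.92-fold higher, by 1.97 ± 0.08 (SE, 4 pairs, limma adjusted p = 2.1e-07). Septin4 was higher by 0.85, and Birc5, an inhibitor of apoptosis protein that acts in mitosis, by 0.53. Tnfrsf21, the death receptor DR6, was lower by -0.47.

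Of 38 further p53 targets tested, 5 were higher and 4 lower, with a median difference of 0.03. The share called, 23.7%, was close to the 24.4% of all features. Plk2, a kinase induced by both p53 and neuronal activity, read -0.53, -0.47, -0.27 and -0.36 in GFP-labelled replicates 1 to 4 and 0.92, 0.16, 1.36 and 0.26 in Nr4a1-labelled replicates 1 to 4. It was 2.12-fold higher, by 1.08 ± 0.16 (SE, 4 pairs, limma adjusted p = 0.00089), and Nr4a1-labelled replicates 1 and 3 were far above 2 and 4, as they were for the Nr4a1 probe. Ddit4, an inhibitor of mTORC1 induced by stress, was 1.72-fold lower, by -0.78 ± 0.11 (SE, 4 pairs, limma adjusted p = 0.00071), and it read -0.32, 0.54, 0.08 and 0.54 in Nr4a1-labelled replicates 1 to 4 against 0.87 to 1.07 in GFP-labelled arrays. Abhd4, Tigar and Ephx1 were higher by 0.39, 0.38 and 0.34.

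Of 23 tested regulators of p53, 4 were higher and 1 lower, a share of 21.7% beside 24.4% of all features. Cdkn2a, which encodes p16 and the Mdm2 inhibitor p19Arf from overlapping reading frames, was 1.55-fold higher, by 0.64 ± 0.06 (SE, 4 pairs, limma adjusted p = 5.1e-05), with GFP-labelled arrays at -4.28 to -4.09 and Nr4a1-labelled arrays at -3.65 to -3.48. Which of its transcripts the probe reads was not tested. Hipk2, a kinase that phosphorylates p53, was higher by 0.33, with overlapping groups and no call without the pair block (0.33, limma adjusted p = 0.0524). Usp7, a deubiquitinase of Mdm2 and p53, was higher by 0.36, and Trp53bp2, a p53-binding cofactor, by 0.36. Trp53bp1, a DNA repair protein, was lower by -0.32.

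**Figure D4:**
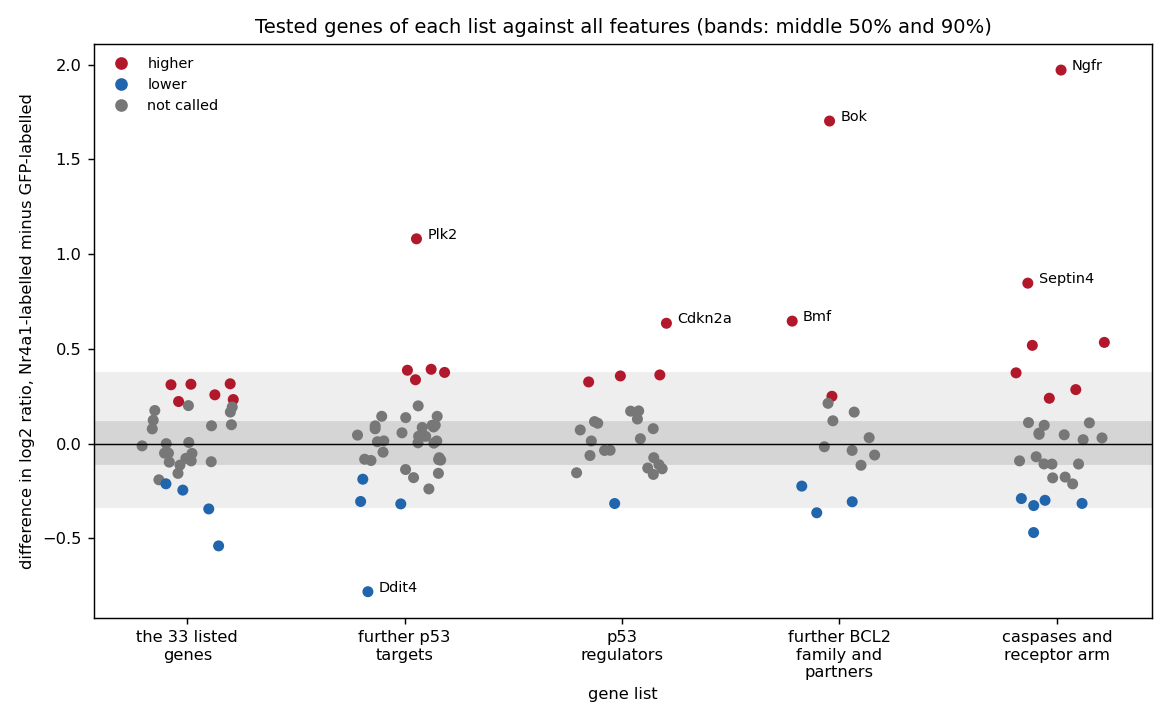
Log2 difference (y axis, Nr4a1-labelled minus GFP-labelled) of each tested gene of the 33 and of 4 further lists (x axis), coloured by call, with grey bands for the middle 50% and 90% of all features. Ngfr at 1.97, Bok at 1.70, Plk2 at 1.08 and Ddit4 at -0.78 lie outside the range of the 33 genes, which runs from -0.54 to 0.32.

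Markers of the cell types that such cultures can hold also moved. The mean log2 ratio of 10 neuron markers was 4.92 to 5.03 in GFP-labelled arrays and 4.79 to 4.99 in Nr4a1-labelled arrays, with 0 markers higher and 1 lower, so the neuronal markers were far above the reference in both groups. The 10 astrocyte markers averaged 3.48 to 3.60 and 3.59 to 3.75 (3 higher, 0 lower), and the 10 oligodendrocyte lineage markers 0.90 to 1.06 and 1.18 to 1.22 (5 higher, 2 lower). Of 12 microglia markers 7 were tested, with means of -1.59 to -1.55 and -1.74 to -1.66 (0 higher, 1 lower). P2ry12 and C1qc were well above background on 0 arrays. Of 9 fibroblast and vascular markers 8 were tested, with means of -2.31 to -2.24 and -2.49 to -2.46 (0 higher, 2 lower), and Cdh5 was well above background on 0 arrays. Of 11 proliferation markers 10 were tested, with means of -3.97 to -3.77 and -3.53 to -3.38 (7 higher, 0 lower). The groups did not overlap in the oligodendrocyte, microglia, fibroblast and vascular, and proliferation means, and they overlapped in the neuron and astrocyte means. The part of these markers in the differences of Perp, Fas, Gadd45a, Apaf1 and the other called genes was not tested.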

How the data were processed

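RNA of cultured neurons was measured on 8 2-colour Agilent mouse arrays, with the culture in Cy5, a reference RNA in Cy3 and no dye swap. Per the file headers, Agilent Feature Extraction 11.0.1.1 gave signal and background intensity on a linear scale and a log10 ratio of Cy5 over Cy3 for each spot. The authors also deposited a table of log2 ratios for 24275 probes, with scale, centring and direction unstated. Its columns correlated at 0.998 to 1.00 with the log2 ratios computed here, with slopes of 0.992 to 1.01 and medians of 0.0240 to 0.0312, and it was read as log2 of culture over reference. The sources used here do not say how its probes were chosen.

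Spots marked as having a non-uniform background (0 to 37 an array) were left out, as a choice made with earlier results of these data known. Median intensities were corrected with normexp (offset 50), which shrinks the folds of dim probes, and normalised by loess within each array, with control spots at weight 0. Spots of a probe were averaged. Probes were named through the RefSeq table of GRCm38.p6 (26581 of 39429 matched), and a gene was represented by its probe of highest mean Cy5 intensity. Testing needed Cy5 well above background on 4 or more of the 8 arrays and 3 or more values per group. Groups were compared two-sided with limma 3.58.1 (R 4.3.3, lmFit then eBayes). The labels' pair tag entered as a fixed block, and p-values were adjusted by Benjamini and Hochberg's method, with calls at 0.05. As a check of the pairing, the 2 arrays of a pair deviated from their group means with correlations of -0.10, 0.28, -0.016 and 0.42. The script was tested on simulated data. Promoters and figures were handled in Python 3.11.15 with matplotlib 3.10.9.

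The 33 genes, the further lists and the markers were chosen with earlier results of these data known. By the rule for named genes, per-array values go to Trp53, to the called members and to the 3 uncalled members of smallest p (Trp53, Aifm1 and Bad), and from each further list the 5 genes of smallest p are named, except 1 gene that is not reported here. Alternatives changed the background correction, the normalisation, the source of the values, the filter, the probe of a gene, the block, the array weights and the replicates. The number of arrays limits the precision.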

Additional observations from a re-analysis of the deposited data

Results flagged for a closer look

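In 102 groups of 4 arrays (the 31 tested genes and 20 genes of the further lists, in each group), a single array lay far outside the other three in 13. Chance alone would do so in about 1 of 20 groups. Among the 33 genes, Trp53 read -1.15 in Nr4a1-labelled replicate 4, with the others at -1.42 to -1.38, and Tnfrsf10b read -1.15 there, with the others at -1.08 to -1.07. In GFP-labelled replicate 4, Zmat3 read 0.99 (others 1.42 to 1.48) and Mcl1 -0.87 (others -0.69 to -0.67). In Nr4a1-labelled replicate 2, Bid read -0.47 (others -0.66 to -0.64) and Phlda3 0.072 (others 0.0004 to 0.01). Diablo stood apart in replicate 1 of both groups, at 0.28 with GFP (others 0.16 to 0.17) and at -0.11 with Nr4a1 (others 0.002 to 0.01).

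Among the further genes, Bag1 read 1.56 in GFP-labelled replicate 4 (others 1.5 to 1.51) and 1.34 in Nr4a1-labelled replicate 4 (others 1.28 to 1.29), so both arrays of that pair were raised. Hipk2 read -0.99 in GFP-labelled replicate 4 (others -0.64 to -0.59). Trp53bp2 read 0.27 in Nr4a1-labelled replicate 3 (others 0.56 to 0.61), and Ephx1 read 1.07 in Nr4a1-labelled replicate 4 (others 1.22 to 1.24).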

How the results depend on the processing

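Group and slide cannot be told apart, since no slide held both groups, and the slide's part in the calls was not tested beyond the random block. With a random slide effect added to the pair block, 8 features were higher and 4 lower, and 0 members and 0 genes of the 4 further lists were called. With all spots in the background correction, 130 features were higher and 98 lower, 0 members were called, and 1 p53 regulator (Cdkn2a) and 1 BCL2 family gene (Bok) were higher, while 0 were lower in any list and 0 p53 targets or caspase and receptor genes were higher. With Agilent's own log ratio, 1510 features were higher and 1350 lower, 2 members were lower and 0 p53 regulators were lower. With median centring, 1264 features were lower, 10 members were higher and 2 lower, 5 BCL2 family genes were higher and 1 lower, 0 regulators were lower, and 3 caspase and receptor genes were lower. With the Cy5 channel alone, 8 p53 targets and 7 regulators were higher, and 2 regulators and 8 caspase and receptor genes were lower. Of all features, 15.1% were higher and 13.7% lower in that setting. With the authors' deposited values, 3 regulators were lower, beside 11.6% of all features. With the batch as the block in place of the pair, 10 members were higher.

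Without the replicate block, 2350 features were higher and 2128 lower, and the same 10 members were called, while Hipk2 alone among the further genes named lost its call. Without replicates 2 and 4, an alternative chosen after seeing the data, 1582 features were higher and 1437 lower, 2 members were higher and 2 lower, 3 p53 targets were higher and 2 lower, 2 regulators were higher, 1 BCL2 family gene was lower and 3 caspase and receptor genes were lower. Leaving out 1 replicate at a time gave 1784 to 2597 features higher and 1629 to 2006 lower, 3 to 7 members higher and 2 to 3 lower, 1 to 2 regulators lower and 5 to 8 caspase and receptor genes lower. Without replicate 1 the features higher fell to 1784, without replicate 2 the members higher to 3, and without replicate 3 or 4 the members lower to 2. Without replicate 4, which is batch 1 alone, 2 regulators were lower, beside 8.96% of all features. Without replicate 3, 8 caspase and receptor genes were lower, beside 9.52%. Batch 2 is 1 pair and gave no test.

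Only members that were not called changed sign. With median centring, these were Bax (0.048), Bak1 (0.011), Bcl2 (0.047), Bcl2l1 (0.032), Casp9 (0.020), Ccng1 (0.011), Zmat3 (0.053) and Aen (0.097). With the Cy5 channel alone, they were Bax (0.086), Casp9 (0.129), Ccng1 (0.073), Sesn1 (0.159) and Zmat3 (0.020). With all spots in, they were Bcl2 (0.117), Casp8 (0.280) and Ei24 (-0.063). The slide block turned Casp8 (0.00105), Birc2 (-0.024) and Zmat3 (0.0115), Agilent's ratio turned Casp8 (0.0051), and the authors' values turned Cdkn1a (-0.026). The second, dimmer Cdkn1a probe differed by -0.019 in the main fit and the probe used there by 0.123. From the authors' values, too, the brightest probe they hold was read, and its difference was near that of the dimmer probe. Without replicates 2 and 4, Bcl2 was 0.045 and Birc2 -0.017. With 1 replicate left out at a time, Bcl2 ran from -0.066 (without replicate 3) to 0.034 (without replicate 1), Birc2 from -0.045 (without replicate 2) to 0.041 (without replicate 4), and Casp8 and Zmat3 from -0.114 and -0.129 (without replicate 4) to 0.018 and 0.023 (without replicate 3). The causes were not tested.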
